A study of Mus musculus with 8 samples.

Results

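The Slc22 genes encode membrane transporters of organic ions, and the 5 members described here are Slc22a5, Slc22a7, Slc22a26, Slc22a27 and Slc22a30. The group was chosen by measured values in the same liver comparison that is described here, so that the differences of its members stand as a description and carry no test. The array names 16593 gene symbols, and 3 of the 5 members, Slc22a5, Slc22a7 and Slc22a26, were among them with 5 probes in all. Slc22a27 and Slc22a30 have no named probe, so that their mRNA levels were not analysed here, and both enter only with their promoters. A further 13 Slc22 genes have a named probe and serve as the comparison within the family.

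Transporters of the SLC22 family sit in the plasma membrane and fall into organic cation transporters, carnitine and zwitterion transporters, and organic anion transporters. In the liver they move drugs, nucleotides, steroid conjugates and carnitine between blood and hepatocytes. Slc22a5 encodes OCTN2, the sodium-dependent carnitine transporter, and carnitine carries long-chain fatty acids into mitochondria for oxidation. Slc22a7 encodes OAT2, an organic anion transporter of the hepatocyte membrane facing the blood. Slc22a26, Slc22a27 and Slc22a30 are rodent genes related in sequence to the organic anion transporters, and in the mouse they lie in one group on chromosome 19.

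Liver mRNA was measured in 4 wild type and 4 TgC6hp55 male mice, all 21 weeks old and labelled C57BL/6J, with 1 Illumina BeadChip (Mouse Ref-8 v2.0) per liver. TgC6hp55 mice carry the coding sequence of the human TNF receptor TNFR1 behind the CollagenVI(a1) promoter, which is active in mesenchymal cells, and a human growth hormone (hGH) minigene follows it in the construct. Wild type mice carry neither. The study made its transgenic line from a single founder male and later added another. The paper states that its main analysis centred on the first founder, and the labels do not say which founder the 4 livers descend from. The comparison asked which liver mRNAs differ in mice with the transgene. The labels do not mention pooling, and each array is taken as 1 animal.

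On these arrays, the brightness of beads carrying a gene's probe reports its mRNA level, on a linear scale with the background already subtracted. Each value comes with a detection p-value against beads that match no mouse gene, and a probe was called detected where it was under 0.05. Values called log2 signal below were background corrected and quantile normalized between arrays, and a difference is always TgC6hp55 minus wild type on this log2 scale. The mean intensity per array was 167 to 179 in the wild type livers and 112 to 224 in the TgC6hp55 livers, with replicate 4 the dimmest and replicate 3 the brightest. On the wild type arrays 11005 to 11269 probes were detected, and on the TgC6hp55 arrays 10541 to 12011. Precision is limited by the number of arrays, 4 per group. A bulk liver value cannot tell fewer cells of a type from less RNA per cell.

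Hepatocyte markers were detected on all 8 arrays for 5 of 6 genes, with Tat below detection, and 0 of the 5 tested were called. Their summed deposited intensity was 36418 to 40450 in the wild type and 32825 to 39189 in the TgC6hp55 livers. All sums in this paragraph were taken before normalization and are not adjusted for the brightness of the array. In the Kupffer cell and macrophage list 1 of 2 tested genes, Adgre1, was higher, with sums of 68 to 358 and 202 to 521, and Cd5l was not detected. In the endothelial list 1 of 3 tested genes, Pecam1, was higher, with sums of 1583 to 2397 and 1480 to 3387. None of the cholangiocyte, stellate and fibroblast, or lymphocyte genes tested was called, and their sums stayed between 1 and 80 in every liver. The lymphocyte sums of 9 to 29 and 30 to 59 nearly touched without overlap, and 0 of these genes were detected on all 8 arrays. For single features on the normalized scale, the groups did not overlap in 16.8% of all features. The adipocyte genes Adipoq, Plin1 and Lep were detected on no array. Of 6 kidney genes, Umod, Slc22a6, Slc22a8 and Slc22a12 were detected on no array. Whether the cells behind the Adgre1, Pecam1 and lymphocyte values had any part in the Slc22 values was not tested.

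The promoters of the 2 members with the higher TgC6hp55 signals are shown here because they differ in composition. Each window holds the 250 bases before the start of the RefSeq gene on GRCm38.p6, read on the gene's own strand, with the start following its last base. That of Slc22a26 is chr19:7802668-7802917 on the minus strand and that of Slc22a5 is chr11:53891704-53891953 on the minus strand. Capitals mark the only match found to any of the motifs searched.
Slc22a26: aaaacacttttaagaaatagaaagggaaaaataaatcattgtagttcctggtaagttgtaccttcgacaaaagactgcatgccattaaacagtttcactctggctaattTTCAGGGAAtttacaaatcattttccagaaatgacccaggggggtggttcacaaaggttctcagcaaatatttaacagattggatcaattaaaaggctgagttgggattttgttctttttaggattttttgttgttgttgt
Slc22a5: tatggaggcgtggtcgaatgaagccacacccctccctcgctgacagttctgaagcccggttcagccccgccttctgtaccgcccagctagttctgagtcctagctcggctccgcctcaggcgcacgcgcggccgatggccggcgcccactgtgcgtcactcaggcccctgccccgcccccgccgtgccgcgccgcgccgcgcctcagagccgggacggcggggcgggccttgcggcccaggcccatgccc
G and C make up 34.4% of the Slc22a26 window and 73.6% of the Slc22a5 window.

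Both strands were searched for the STAT motif TTCNNNGAA, for ATCGAT of CUX and HNF6, for the HNF4 motif CAAAGTCCA, for GTTAAT, a part of the HNF1 site, for the nuclear receptor motif AGGTCA and for the TATA box with the letters TATAAA. Windows were at hand for 4 members, and Slc22a7 had none and was not searched. No match in the windows of these 4 members overlapped another. The Slc22a26 window held a STAT match, TTCAGGGAA, which begins 141 bases before the start, and a STAT match is present in 7.02% of 32851 RefSeq windows of this length. The Slc22a5 window held none of the motifs. The other shares of all windows were 0.728% for ATCGAT, 0.384% for CAAAGTCCA, 6.43% for GTTAAT, 14.0% for AGGTCA and 12.4% for TATAAA. Of the members without a probe, the Slc22a27 window held 1 AGGTCA match, on the minus strand, and the Slc22a30 window none of the motifs. A match describes the letters of the window and is no evidence that a factor binds there.

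Slc22a26 (probe ILMN_2959409) was detected in all 4 TgC6hp55 livers and in 0 of 4 wild type livers. Its deposited intensity was 4, -1, -3 and 1 in wild type replicates 1 to 4, with detection p-values of 0.14, 0.538, 0.768 and 0.326. In the TgC6hp55 livers it was 213, 186, 199 and 168. Every TgC6hp55 liver therefore stood far above background, and no wild type liver stood above it. Slc22a26 has close relatives among its neighbours, and whether the probe also reads their mRNA was not tested. The wild type group had a log2 signal of 4.29 ± 0.09 (SD, n = 4) and the TgC6hp55 group one of 7.74 ± 0.41 (SD, n = 4), and the nearest livers of the groups lay 2.82 apart. The level in the TgC6hp55 livers was at least 8.95-fold higher, where a wild type signal under the lowest detected signal of its array was set to that signal. This bound holds for the offset of 16 added in the background step, and it was 4.31-fold with an offset of 50 and 25.98-fold with no further background correction. The fitted difference was 3.45 (standard error 0.17), and since one side lies at background its size depended on the same step. It was 2.22 with an offset of 50 in place of 16, and 7.13 with no further background correction. In the latter setting, intensities under 1 were set to 1 before log2 was taken.

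Among the TgC6hp55 livers, Slc22a26 varied more after normalization than before it. The log2 signals were 7.996, 7.59, 7.23 and 8.15 in replicates 1 to 4, while the deposited intensities stayed within 168 to 213. Replicate 4 had the lowest intensity but the highest normalized signal, and replicate 3 had the lowest normalized signal. As a share of the mean intensity of its array, the probe gave 141%, 110%, 89.0% and 150% in replicates 1 to 4. In the authors' cubic spline normalized table the same livers had 257, 195, 151 and 288, against 9 to 15 in the wild type livers. The order of the 4 TgC6hp55 livers was thus the same in both normalizations and followed the inverse order of array brightness.

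**Figure D1:**
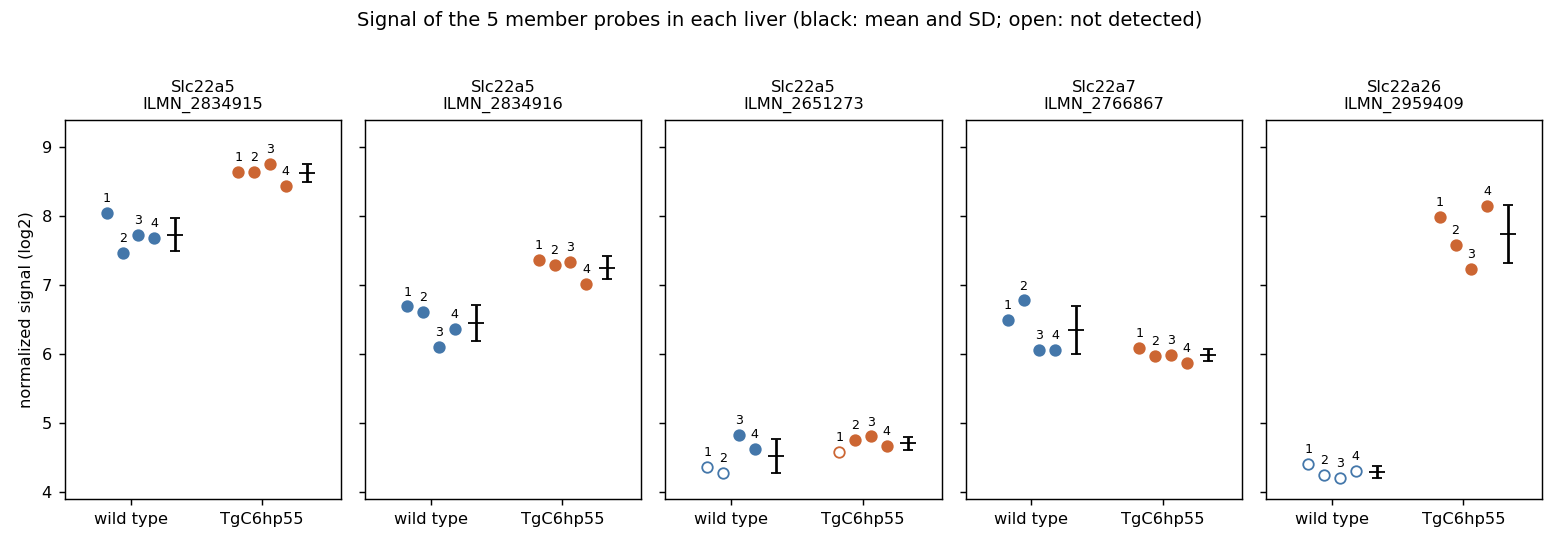
Normalized log2 signal (y axis) of the 5 probes of Slc22a5, Slc22a7 and Slc22a26 in each wild type and TgC6hp55 liver, with replicate numbers beside the points, open points where the probe was not detected, and the mean with its SD in black. The Slc22a26 groups are 2.82 apart at their nearest livers, the 2 brighter Slc22a5 probes separate the groups, and the Slc22a7 groups overlap.

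Slc22a5, the carnitine transporter, was detected in all 8 livers by 2 of its 3 probes. For the brightest probe, ILMN_2834915, the log2 signal was 8.05, 7.47, 7.73 and 7.69 in wild type replicates 1 to 4 and 8.65, 8.65, 8.75 and 8.45 in TgC6hp55 replicates 1 to 4. All TgC6hp55 livers lay above all wild type livers, with a gap of 0.40. The group values were 7.73 ± 0.24 (SD, n = 4) and 8.62 ± 0.13 (SD, n = 4), a difference of 0.89 (standard error 0.13), or 1.85-fold. Leaving out each liver in turn gave differences of 0.80 to 0.995.

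A further Slc22a5 probe, ILMN_2834916, also separated the groups. Its log2 signal was 6.69, 6.61, 6.11 and 6.37 in the wild type and 7.37, 7.30, 7.34 and 7.02 in the TgC6hp55 livers, a difference of 0.81 (standard error 0.14). The dim probe ILMN_2651273 was detected in 2 wild type and 3 TgC6hp55 livers, at intensities of 0 to 13 and 7 to 18. Its groups overlapped, with a difference of 0.18 (standard error 0.13) close to the background of the array. The 3 probes read the same gene in the same livers and are not independent replicates.

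Before normalization the Slc22a5 groups did not separate. The intensity of ILMN_2834915 was 257, 172, 209 and 191 in the wild type and 335, 403, 578 and 210 in the TgC6hp55 livers. TgC6hp55 replicate 4, whose array was the dimmest at a mean intensity of 112, lay inside the wild type range, and the other 3 TgC6hp55 livers lay above it. As a share of the mean intensity of the array, the probe gave 96.1% to 144% in the wild type and 187% to 259% in the TgC6hp55 livers, without overlap. The authors' normalized intensities were 180 to 266 and 351 to 439. Without TgC6hp55 replicate 4 the difference was 0.95.

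**Figure D2:**
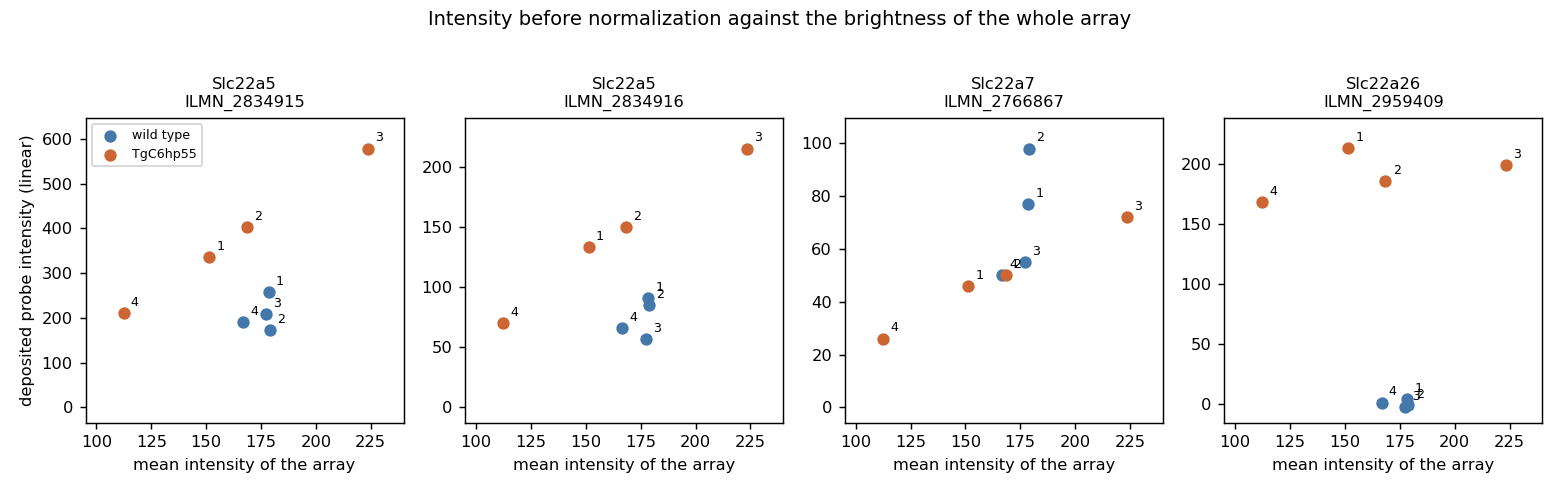
Deposited probe intensity on a linear scale (y axis) against the mean intensity of the array (x axis) for 4 member probes, with 1 point per liver and replicate numbers beside the points. TgC6hp55 replicate 4, on the dimmest array (112), falls within the wild type range for both Slc22a5 probes, while the Slc22a26 intensity stays at 168 to 213 in all TgC6hp55 livers.

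Slc22a7, the organic anion transporter OAT2, was detected in all 8 livers by its only probe, ILMN_2766867. The log2 signal was 6.50, 6.78, 6.07 and 6.06 in wild type replicates 1 to 4 and 6.09, 5.98, 5.99 and 5.87 in TgC6hp55 replicates 1 to 4. Wild type replicates 1 and 2 lay above every TgC6hp55 liver, and replicates 3 and 4 lay just below TgC6hp55 replicate 1, so that the groups overlapped. The group values were 6.35 ± 0.35 (SD, n = 4) and 5.98 ± 0.09 (SD, n = 4), a difference of -0.37 (standard error 0.15). Without wild type replicate 2 the difference was -0.23, and without wild type replicate 4 it was -0.47. The deposited intensities were 77, 98, 55 and 50 in the wild type and 46, 50, 72 and 26 in the TgC6hp55 livers.

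Of the 3 tested members 2, Slc22a5 and Slc22a26, were called at a limma adjusted p under 0.05 over all 8540 features, both higher. The same test called 11% of all features, 6.52% as higher and 4.51% as lower in TgC6hp55. The groups of the same 2 members did not overlap, which was so for 16.8% of all features. All 3 had entered the test after a filter on dim probes, and Slc22a26 passed it only through the TgC6hp55 arrays. Since the members were selected on these values, nothing is read from these counts.

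The 13 other Slc22 genes with a probe show how little of the family the liver arrays measured. Only Slc22a23 and Slc22a18 had a probe that passed the filter of detection on at least 4 of the 8 arrays. The other 11 genes had 0 to 3 arrays with a detected probe, and 5 of them, Slc22a2, Slc22a6, Slc22a8, Slc22a12 and Slc22a13, were detected on none. Slc22a6, Slc22a8 and Slc22a12 encode the anion transporters OAT1 and OAT3 and the urate transporter URAT1 of the kidney, and Slc22a2 the cation transporter OCT2. The remaining 6 were Slc22a4, Slc22a14, Slc22a17, Slc22a19, Slc22a21 and Slc22a22. Together, the 18 Slc22 probes of non-members below the filter, which include the Slc22a23 probe ILMN_3064514, had intensities of -11 to 12. None of them was detected on more than 3 arrays, so that no difference is given for these 11 genes.

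Slc22a4 and Slc22a21, both among these dim genes, neighbour Slc22a5 on chromosome 11 in the RefSeq annotation and belong to the carnitine and zwitterion branch. Slc22a4, which encodes OCTN1, a transporter of ergothioneine, was detected on 1 wild type and 2 TgC6hp55 arrays. Slc22a21, the carnitine transporter OCTN3 of the mouse, was detected on 1 TgC6hp55 array. On chromosome 19 Slc22a19, next to Slc22a26, was detected by 1 of its 4 probes on 1 wild type array and by none on a TgC6hp55 array.

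Slc22a23, an orphan member of the family, had a log2 signal of 7.94, 7.71, 7.87 and 7.90 in the wild type and 8.11, 8.38, 8.28 and 7.98 in the TgC6hp55 livers. The groups did not overlap, as in 16.8% of all features, but their nearest livers differed by 0.036. The difference was 0.33 (standard error 0.11, 95% interval 0.086 to 0.57) with a limma adjusted p of 0.0863, so that it was not called. Without TgC6hp55 replicate 4 the adjusted p was 0.0353 and with array weights 0.0320, in a range of 0.032 to 0.232 over 19 alternatives. Slc22a18, an imprinted member of the family, had a log2 signal of 10.35 ± 0.07 (SD, n = 4) in the wild type and 10.56 ± 0.21 (SD, n = 4) in the TgC6hp55 livers. Its difference was 0.21 (95% interval -0.039 to 0.46, limma adjusted p = 0.290), it was called in none of the 19 alternatives, and its groups overlapped. These values come from the brightest probe of each gene. The further Slc22a23 probe, ILMN_3064514, was detected on no array. The further Slc22a18 probe, ILMN_2702633, was detected on 1 wild type and 3 TgC6hp55 arrays, with a difference of 0.069 (standard error 0.13). Of the 2 genes 0 were called by limma, against 1 at an unadjusted p under 0.05 and 0 by a plain unpaired test. Over all 8540 features limma called 6.52% higher and 4.51% lower, and at an unadjusted p under 0.05 there were 1152 higher and 940 lower. With 2 genes tested, these counts say nothing about the family as a whole.

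**Figure D3:**
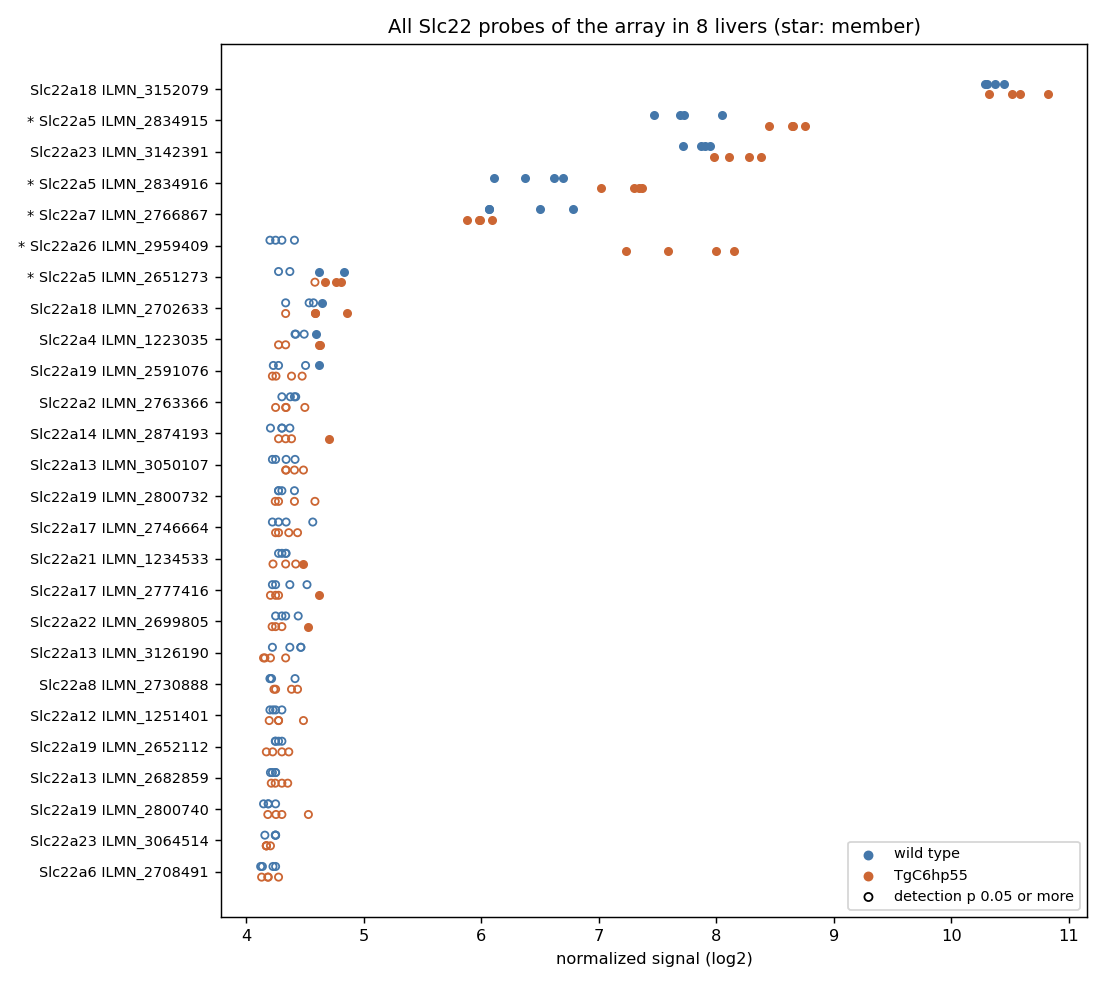
Normalized log2 signal (x axis) of every Slc22 probe of the array (rows, ordered by mean signal, stars for members) in the 8 livers, with wild type in blue, TgC6hp55 in orange and open points where the detection p was 0.05 or more. Slc22a5, Slc22a7, Slc22a18 and Slc22a23 each have a probe detected in all livers, Slc22a26 is detected in the TgC6hp55 livers alone, and most other probes lie near the background.

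Carnitine, the substrate of Slc22a5, is made, moved and loaded with acyl groups by other enzymes and carriers. A list of 15 genes held these and a few that work beside them, among them Acadm of fatty acid oxidation and Pdzk1, a scaffold protein. All 15 had a probe and 10 passed the filter. The test called 2 of them, Crat and Acadm, higher and 0 lower in TgC6hp55, where 6.52% of all features were called higher and 4.51% lower. The median difference was 0.26 against -0.0082 over all features. At an unadjusted p under 0.05 there were 5 higher and 0 lower, against 1152 higher and 940 lower of all 8540 features. The list was drawn up around Slc22a5 with earlier results of these data known, so these comparisons are a description and no independent support. Tmlhe, Aldh9a1, Cpt1a and Cpt1c were detected on no array and Crot on 1. The steps of carnitine synthesis run by Tmlhe and Aldh9a1 and the outer carnitine palmitoyltransferase of the liver were therefore not measured.

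Crat, carnitine acetyltransferase, moves acetyl groups between coenzyme A and carnitine. Its log2 signal was 6.58, 6.58, 6.79 and 6.85 in the wild type and 8.07, 7.74, 7.36 and 8.18 in the TgC6hp55 livers, with no overlap. The difference was 1.13 (standard error 0.16), or 2.19-fold, with a limma adjusted p of 8.99e-04. The call held in 18 of 19 alternatives and was lost in a plain unpaired test (adjusted p = 0.0843, range 1.61e-04 to 0.0843).

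Acadm, the medium-chain acyl-CoA dehydrogenase, oxidizes fatty acids within mitochondria and does not handle carnitine itself. Its log2 signal was 12.14, 11.93, 11.92 and 11.92 in the wild type and 12.44, 12.47, 12.39 and 12.13 in the TgC6hp55 livers. TgC6hp55 replicate 4 lay just under wild type replicate 1, so that the groups overlapped. The difference was 0.38 (standard error 0.11) with a limma adjusted p of 0.0445, and the call was lost in 12 of 19 alternatives. Over all 19 the adjusted p ran from 0.0103 to 0.131. It was lost when any single liver but wild type replicate 1 or TgC6hp55 replicate 4 was left out, with adjusted p-values of 0.0933 to 0.123.

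The other 8 genes did not pass. Shmt1, a serine hydroxymethyltransferase, had a difference of 0.42 (adjusted p = 0.0603). Bbox1, which makes carnitine from its last precursor, had 0.32 (adjusted p = 0.135), and Slc25a20, the carnitine and acylcarnitine carrier of the inner mitochondrial membrane, had 0.28 (adjusted p = 0.227). The differences of Slc16a9, Cpt2, Pdzk1, Shmt2 and Cpt1b were 0.24, 0.23, 0.16, -0.11 and -0.10, with adjusted p-values of 0.167 to 0.671. Pdzk1 encodes a scaffold protein of the membrane that binds several transporters, OCTN2 among them.

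Hepatocytes also move organic ions with transporters outside the Slc22 family. A list of 28 genes held such transporters and a few carriers of other substrates, such as the nucleoside carriers Slc29a1 and Slc28a1. It is called other organic ion transporters below, and 27 of its genes had a probe and 18 were tested. Of the 18, 4 were called higher and 1 lower, with 13 not called, beside 6.52% and 4.51% of all features. Their median difference was 0.057, or -0.024 with median scaling, against -0.0082 and -0.013 over all features. Differences ran from -1.29 to 1.18, so that these genes went both ways. This list too was chosen with earlier results of these data known, and its counts are a description.

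Slc17a4, which encodes an organic anion transporter of the sodium phosphate transporter family, had the largest increase of the list. Its log2 signal was 6.53, 6.76, 7.07 and 7.07 in the wild type and 8.06, 7.93, 8.14 and 8.02 in the TgC6hp55 livers, with the nearest livers 0.86 apart. The difference was 1.18 (standard error 0.13), or 2.27-fold, with a limma adjusted p of 9.64e-05, and the call held in all 19 alternatives.

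Slc13a2, a sodium-coupled carrier of citrate and succinate, was the gene called lower. Its log2 signal was 6.81, 7.04, 6.91 and 7.002 in the wild type and 5.35, 5.41, 5.62 and 6.23 in the TgC6hp55 livers. TgC6hp55 replicate 4 lay nearest to the wild type, 0.57 below its lowest liver. The difference was -1.29 (standard error 0.17) with a limma adjusted p of 4.80e-04, and the call was lost in the plain unpaired test alone (adjusted p = 0.0896, range 6.06e-06 to 0.0896).

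Slc51b, a subunit of the bile acid exporter OSTα-OSTβ, had a difference of 0.87 (standard error 0.13, limma adjusted p = 8.99e-04) at low intensities, 8 to 15 in the wild type and 25 to 58 in the TgC6hp55 livers. With no further background correction the difference was 1.596. Its partner Slc51a was detected on no array. Slco1a4, an uptake transporter of bile acids and drugs, had a difference of 0.82 (standard error 0.16, limma adjusted p = 0.00701), which was lost in the plain unpaired test (adjusted p = 0.0895, range 0.0029 to 0.0895). Slc47a1, the exporter MATE1 of organic cations, had one of 0.47 (standard error 0.09, limma adjusted p = 0.00502), which did not pass the paper's fold and FDR thresholds. The groups did not overlap for these 3 genes.

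Of the main bile acid uptake transporters, Slco1b2 and Slc10a1 had differences of -0.45 (95% interval -0.88 to -0.0084, adjusted p = 0.195) and -0.32 (95% interval -0.58 to -0.071, adjusted p = 0.104). The canalicular exporters Abcb11 and Abcc2 had differences of 0.11 and -0.051, with adjusted p-values of 0.553 and 0.838. None of these 4 genes was called. The Slc10a1 probe was dim, with mean intensities of 33.5 in the wild type and 23.75 in the TgC6hp55 livers.

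Slc22a26 lies between Slc22a19 and Slc22a27 in the RefSeq gene order of chromosome 19, in a run that goes on through Slc22a28, Slc22a29, Slc22a30 and Slc22a8 to Slc22a6. With the 10 protein coding genes on each side, 25 non-member genes make up this neighbourhood, 20 of them with a probe and 10 tested. None of the 10 was called by limma, which called 6.52% of all features higher and 4.51% lower. Of the 10, 1 had an unadjusted p under 0.05, against 1152 higher and 940 lower of all 8540 features. The plain unpaired test called 0 of the 10. With 10 genes tested, these counts cannot tell the neighbourhood from the rest of the array. The median difference of the 10 genes was -0.0013, against -0.0082 over all features. The 2 with the smallest p were Tmem223, at 0.26 (95% interval 0.043 to 0.48, adjusted p = 0.128), and Stx5a, at -0.11 (95% interval -0.31 to 0.092, adjusted p = 0.513). All 10 differences lay between -0.13 and 0.26. The fitted difference of Slc22a26 was 3.45, but this gene was chosen by its measured values, so that the contrast is no test of the locus. The 10 tested genes all lie outside the run of Slc22 genes, whose other members were not detected on enough arrays or have no named probe.

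**Figure D4:**
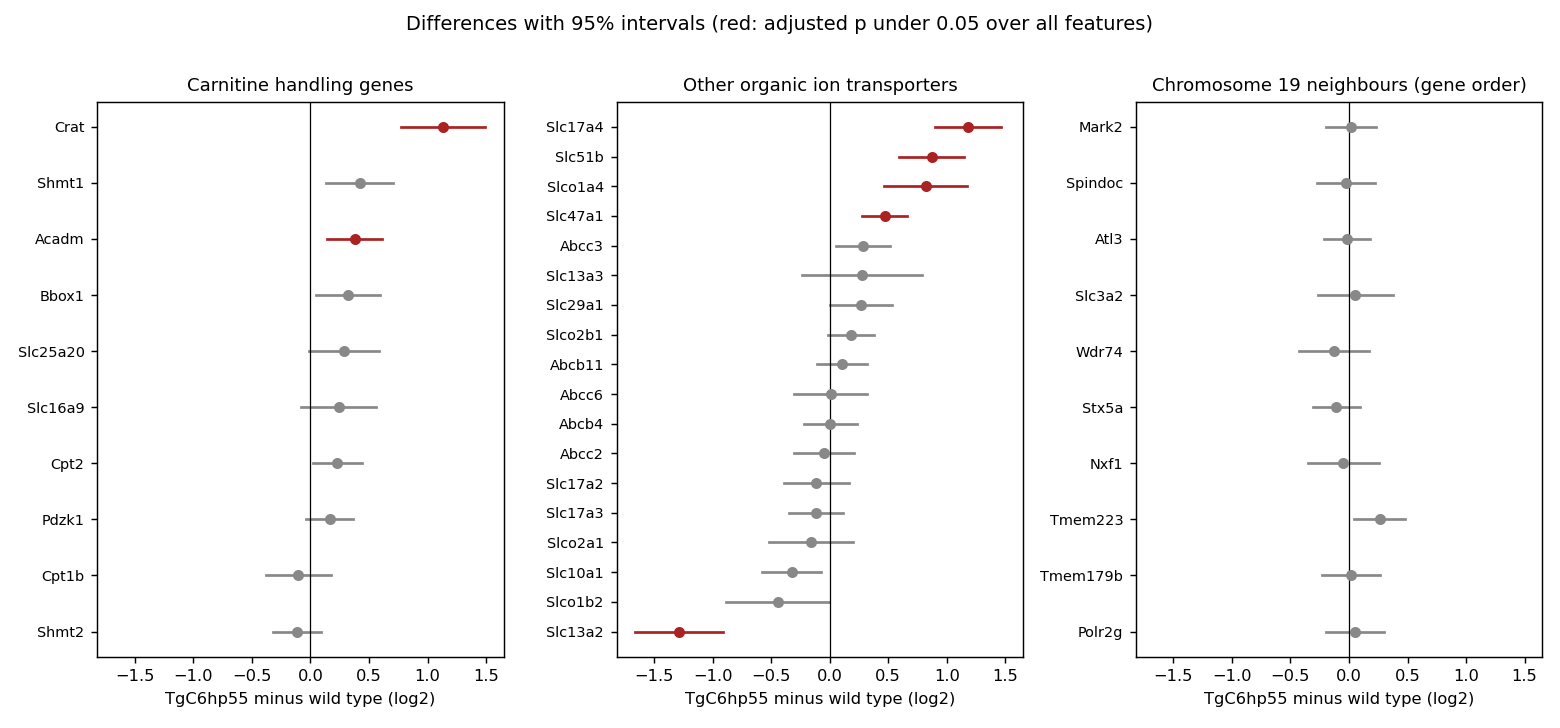
Differences of TgC6hp55 minus wild type (x axis, log2) with 95% intervals for the tested carnitine handling genes, other organic ion transporters and chromosome 19 neighbours (in gene order), with red for an adjusted p under 0.05 over all features. In red are 2 carnitine genes and 5 transporters, and the 10 chromosome 19 neighbours lie between -0.13 and 0.26.

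The genes whose profiles were nearest to each member were found by the mean absolute difference of log2 values over the 8 livers, after the wild type mean of each gene had been subtracted. Each member was set against 7881 genes. A near profile requires a like difference between the groups, so the differences below follow from the choice. Nearest to Slc22a26 were Hao2, a peroxisomal hydroxy acid oxidase, at a distance of 0.17, Cux2, a transcription factor, at 0.20, and Mmd2 at 0.23. The median distance of all genes was 1.79. Hao2 and Cux2, like Slc22a26, were detected in 0 of 4 wild type and all 4 TgC6hp55 livers, while Mmd2 was detected in all 8. With the wild type at background the distances of Hao2 and Cux2 depended on the background step, although both stayed nearest in each of 4 alternatives, and their increases are bounds, at least 7.23-fold and at least 8.78-fold (3.59-fold and 4.23-fold with an offset of 50). The third place went to Acot4 with an offset of 50 and to Acot3 with no further background correction. The difference of Mmd2 was 3.38.

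For Slc22a5 the nearest were Tenm3, a teneurin of the cell surface, at 0.084, Arrdc4, an arrestin domain protein, at 0.10, and Maob, the mitochondrial monoamine oxidase B, at 0.11, against a median of 0.55. Their differences were 0.83, 0.92 and 0.87. Tenm3 and Arrdc4 also had their highest wild type value in replicate 1 and their lowest in replicate 2, as did Slc22a5. Maob had its lowest in replicate 4. The wild type livers entered the distance, so likeness among them also follows from the choice. For Slc22a7 the nearest were Ppid and Prep, a peptidyl-prolyl isomerase and a prolyl peptidase, at 0.10 each, and Hspa5, the chaperone BiP of the endoplasmic reticulum, at 0.11, against a median of 0.34. Their differences were -0.29, -0.46 and -0.44.

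**Figure D5:**
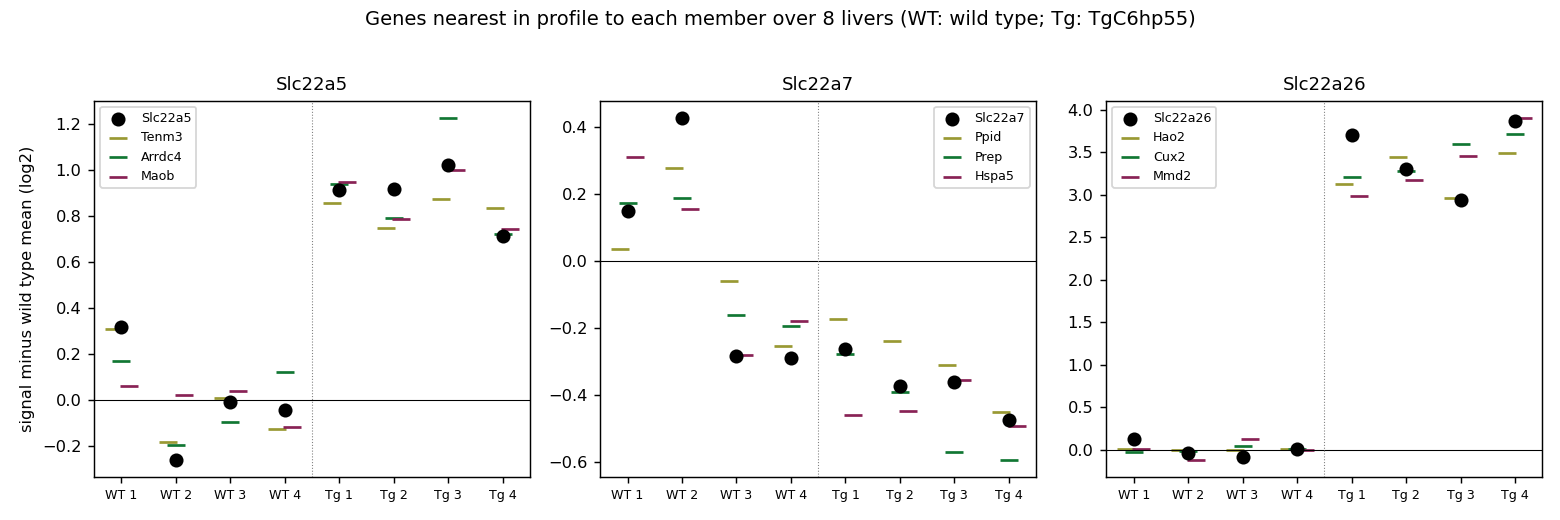
Log2 signal minus the wild type mean of the gene (y axis) in each liver (x axis, WT for wild type and Tg for TgC6hp55, with replicate numbers) for Slc22a5, Slc22a7 and Slc22a26 (black points) and the 3 genes nearest in profile to each (coloured bars). The genes near Slc22a26 sit between 2.96 and 3.91 in the TgC6hp55 livers, and those near Slc22a7 are higher in wild type replicates 1 and 2 than in the other 6 livers.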

How the data were processed

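Liver RNA of 8 mice was hybridized to Illumina arrays, and the authors processed the scans in GenomeStudio 2011.1. The deposited table before normalization holds intensity values, rounded and background subtracted (lowest -16), and a detection p-value per probe and array. The authors' cubic spline normalized intensity values served as an alternative. The 5 members and all gene lists were chosen with earlier results of these data known. In R 4.3.3 with limma 3.58.1, intensities were corrected by normexp from the detection p-values (offset 16), put on the log2 scale and quantile normalized. Probes with a detection p under 0.05 on at least 4 of 8 arrays entered (11100 of 25697), and the brightest probe stood for each gene, giving 8540 features. Groups were compared by lmFit and eBayes, two-sided, with Benjamini-Hochberg adjustment over all features and a threshold of 0.05. Gene symbols came from the array annotation (23978 probes with one, 1719 without), and promoters and gene order from RefSeq GRCm38.p6. The files name no genome build.

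The replicate number in a sample's title decided its column. The labels do not say whether the livers came from separate litters, so p-values measure the spread between these 8 samples. The text names all members and Slc22 genes, every called gene of a list (or the 2 with the smallest p where none was called), and the 3 nearest profiles per member. It also gives uncalled list genes for context, picked after their values were seen. Alternatives were other background correction, scaling, source of values, filters, probes, variance models, tests and thresholds, the replicate block, and each liver left out in turn. Lower bounds and nearest profiles under other background steps were added after seeing the data.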

Additional observations from a re-analysis of the deposited data

Results flagged for a closer look

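Among 28 groups of 4 livers checked, from 14 probes, 1 had a liver that stood apart: Acadm in wild type replicate 1. Its log2 signal of 12.14 lay above the 11.92 to 11.93 of the other 3 wild type livers, and this gap was 0.942 of the range of the group (above Dixon's critical value at the 95% level). About 1 in 20 groups is picked out in this way by chance. Without this liver Acadm kept its call.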

How the results depend on the processing

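The members kept their direction in all alternatives run, 15 for Slc22a5 (0.18 to 0.995), 13 for Slc22a7 (-0.47 to -0.23) and 13 for Slc22a26 (2.22 to 7.13). Several of these could not reverse it, so that the counts are no test of direction. The replicate block leaves each difference as it was, and leaving out a liver cannot reverse the Slc22a5 and Slc22a26 groups, which do not overlap. The Slc22a5 difference was 0.18 with the dim probe ILMN_2651273. That of Slc22a26 was 7.13 with no further background correction, 3.76 with the authors' normalized values and 2.22 with an offset of 50. Its wild type signals at background leave only a lower bound. For the 7.13, intensities under 1 were set to 1, and for the 3.76 the authors' values under 16 were set to 16. The authors' wild type values of Slc22a26, 9 to 15, all became 16, so that both sizes depend on these floors. The number of features called, 942, was 624 with no further background correction, 317 in the plain unpaired test, 287 with the paper's fold and FDR thresholds, and 618 to 918 with a liver left out, lowest without wild type replicate 2. The carnitine handling genes called, 2, became 1 with no further background correction, median scaling, no filter on dim probes or the paper's thresholds, 0 in the plain unpaired test, and 1 to 3 with a liver left out, 3 without wild type replicate 1. The other organic ion transporters called, 5, became 3 in the plain unpaired test and stayed 5 with each liver left out. The other Slc22 genes called, 0, became 1 with array weights and ranged from 0 to 1 with a liver left out, and the chromosome 19 neighbours stayed at 0. The cause of these changes was not tested.

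Wild type and TgC6hp55 samples share replicate numbers 1 to 4. Deviations from the group means of samples with the same number correlated at 0.159, 0.123, 0.0109 and 0.114. The highest correlation with another number was 0.0104, 0.0271, 0.0759 and 0.0122 for wild type replicates 1 to 4. Replicates 1, 2 and 4 thus matched their own number best, and replicate 3 did not. Since this did not hold for every number, the numbers were not taken as pairs in the main test. Whether they mark a shared batch was not tested. With the replicate block 923 features and 1 carnitine handling gene were called, Acadm losing its call (adjusted p = 0.0513). Most Slc22 probes lay at background on most arrays, so that their levels are not known. The comparison of protein sequences that had been planned was not run.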
